A study of Mus musculus with 10 samples.

Results

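The genes of the proteasome subunits, together with those of the proteins that activate, inhibit or assemble the particle, were examined in regenerating mouse liver. Members were the genes of the count table whose symbol consists of Psma, Psmb, Psmc, Psmd, Psme, Psmf or Psmg, a number and at most 1 further letter. This gave 49 of the 23056 genes in the table. Of these, 47 passed the filter on low counts and were tested. The other 2, Psma8 and Psmb11, are described by their counts alone.

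Poly(A) RNA had been sequenced from 4 livers of mice labelled IFRD1-KO (KO) and 6 livers of wild-type (WT) mice. All 10 were taken 12 hours after partial hepatectomy, the surgical removal of liver lobes that makes the remaining hepatocytes leave quiescence. The labels do not give the strain, the age, the sex, how the knockout was made or in which cells it acts, and unoperated liver was not analysed here. The libraries are numbered without naming animals, so the spread behind each p-value is that of these libraries and may be technical in part. In whole liver RNA, fewer cells of a type and less RNA per cell cannot be told apart.

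The proteasome is the protease that degrades proteins tagged with ubiquitin. Its 20S core is a stack of rings: alpha subunits (Psma) form the outer rings that gate the entrance, and beta subunits (Psmb) form the inner rings, where Psmb5, Psmb6 and Psmb7 carry the active sites. The 19S regulatory particle binds at the ends of the core. Its ATPases (Psmc) unfold the substrate, and its other subunits (Psmd) recognise ubiquitin and remove it. In immune cells, and in other cells exposed to interferon, new particles carry Psmb9 in place of Psmb6, Psmb10 in place of Psmb7 and Psmb8 in place of Psmb5. The genes of the core and the regulatory particle are known to be induced together by the transcription factor NFE2L1 when proteasome activity falls. NFE2L1 and its relative NFE2L2 bind antioxidant response elements as partners of small MAF proteins.

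Because that element links many proteasome genes to 1 pair of factors, the letters upstream of the members were searched for its core, TGACNNNGC, on both strands. RefSeq promoter windows on GRCm38.p6 were matched for 41 members (44 windows), and the 250 bases before the start were used. The core was present in 5 of the 44 windows (11.4%), each of a different member, against 10.2% of all 32851 windows of that length. The members were Psmb5 and Psmb6 of the beta ring, the ATPase gene Psmc6, the regulatory subunit gene Psmd12, and Psmd9, which encodes an assembly chaperone of the 19S particle. The stretches that hold it are shown 5′ to 3′ on the strand of the gene, with the matching letters in capitals. In Psmc6 and Psmd12 the match lies in the opposite orientation, so the capitals are its reverse complement.
Psmb5 (chr14:54618026-54618125, minus strand): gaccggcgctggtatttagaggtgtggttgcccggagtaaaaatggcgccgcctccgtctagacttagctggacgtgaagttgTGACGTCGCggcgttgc
Psmb6 (chr11:70525257-70525356, plus strand): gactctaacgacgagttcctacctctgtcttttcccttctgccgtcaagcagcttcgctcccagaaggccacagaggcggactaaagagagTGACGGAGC
Psmd9 (chr5:123228090-123228189, plus strand): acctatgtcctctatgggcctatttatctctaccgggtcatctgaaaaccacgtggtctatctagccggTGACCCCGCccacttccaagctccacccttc
Psmc6 (chr14:45329574-45329673, plus strand): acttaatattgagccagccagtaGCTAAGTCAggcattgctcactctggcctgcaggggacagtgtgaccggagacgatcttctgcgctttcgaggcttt
Psmd12 (chr11:107479278-107479377, plus strand): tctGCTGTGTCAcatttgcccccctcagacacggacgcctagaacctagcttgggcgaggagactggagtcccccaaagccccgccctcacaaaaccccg
A match describes the letters of a window and is not a binding site. The CCAAT box was found in 14 of the 44 windows of members (31.8%), against 33.8% of all windows, and 5 of the 7 alpha ring genes with a window held it. The core of the interferon-stimulated response element was found in 3 of the 44 (6.82%), against 2.98% of all windows, in Psmb3, Psmd4 and Psmd9. No match of one motif overlapped a match of another in these windows. Neither the antioxidant nor the interferon core was found in the windows of Psmb8, Psmb9, Psmb10 or Psmb11.

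Total counts lay between 12675838 and 17098012 in KO and between 12307446 and 14340623 in WT libraries. The targeted gene Ifrd1 was at 19.5 ± 4.38 CPM in KO and 58.7 ± 15.6 CPM in WT libraries (SD, n = 4 and n = 6), where CPM is the count relative to a TMM-adjusted library size, a scaling that corrects for library composition. The KO range of 13.0 to 22.6 CPM lay below the WT range of 40.2 to 81.7 CPM. In WT replicate 4, 69.5% of all genes tested lay nearer the KO average than the average of the other 5 WT livers. This held for 32 of the 47 proteasome genes (68.1%). The same count was not made for the other WT livers. The distance of replicate 4 from the other WT libraries (chi-square per degree of freedom, 60.1 to 122) was similar to that of replicate 2 (57.1 to 122). WT replicate 4 was singled out for its likeness to the KO livers, after the data had been seen. Leaving it out therefore favours larger differences between the groups, and calls made only without it are not independent support. Results are given with and without it where it decides a call.

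No proteasome gene passed the test for a difference between KO and WT livers. The count was 0 of 47 in edgeR's quasi-likelihood test, against 182 of all 13688 genes tested (1.33%, and 0.767% lower in KO), at a Benjamini-Hochberg adjusted p below 0.05. The lowest adjusted p among the members was 0.0694, for Psmd13. At an unadjusted p below 0.05 there were 8 members, all lower in KO (17.02% of 47), against 26.0% of all genes tested, of which 14.4% were lower and 11.6% higher in KO. DESeq2 called 3 members, all lower in KO (6.38% of 47, against 11.9% of all genes with an adjusted p in that fit, and 7.61% lower in KO). Limma-voom called 0 members, against 2.32% of all genes. At an unadjusted p below 0.05 that fit held 8 members, all lower in KO, against 3649 of all 13688 genes tested. Without WT replicate 4, edgeR called 6 members, 5 lower and 1 higher in KO (12.8% of 47), against 2893 genes or 21.4% of all tested (10.9% lower and 10.5% higher in KO). The share of members called was below the background share in each of these fits.

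Fold changes across the family were small. The log2 fold changes of KO over WT ran from -0.61 (Psmd13 and Psmd8) to 0.60 (Psmb9), and 44 of 47 (93.6%) lay within 0.5 of 0 on the log2 scale, against 67.8% of all genes tested. In 45 of 47 (95.7%) the 95% interval of the log2 fold change stayed within a doubling or a halving, against 57.7% of all genes tested. The exceptions were Psmd8, whose interval reached -1.02, and Psmb9, whose interval reached 1.43. The median standard error was 0.163 for the members and 0.245 for all genes tested, so these backgrounds are not matched for precision. The median log2 fold change of the members was -0.10, with 31 below 0 and 16 above, against a median of -0.02 over all genes tested, of which 51.6% were below 0. These intervals bound the difference for each gene; a missed threshold does not show that the groups were equal.

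**Figure D1:**
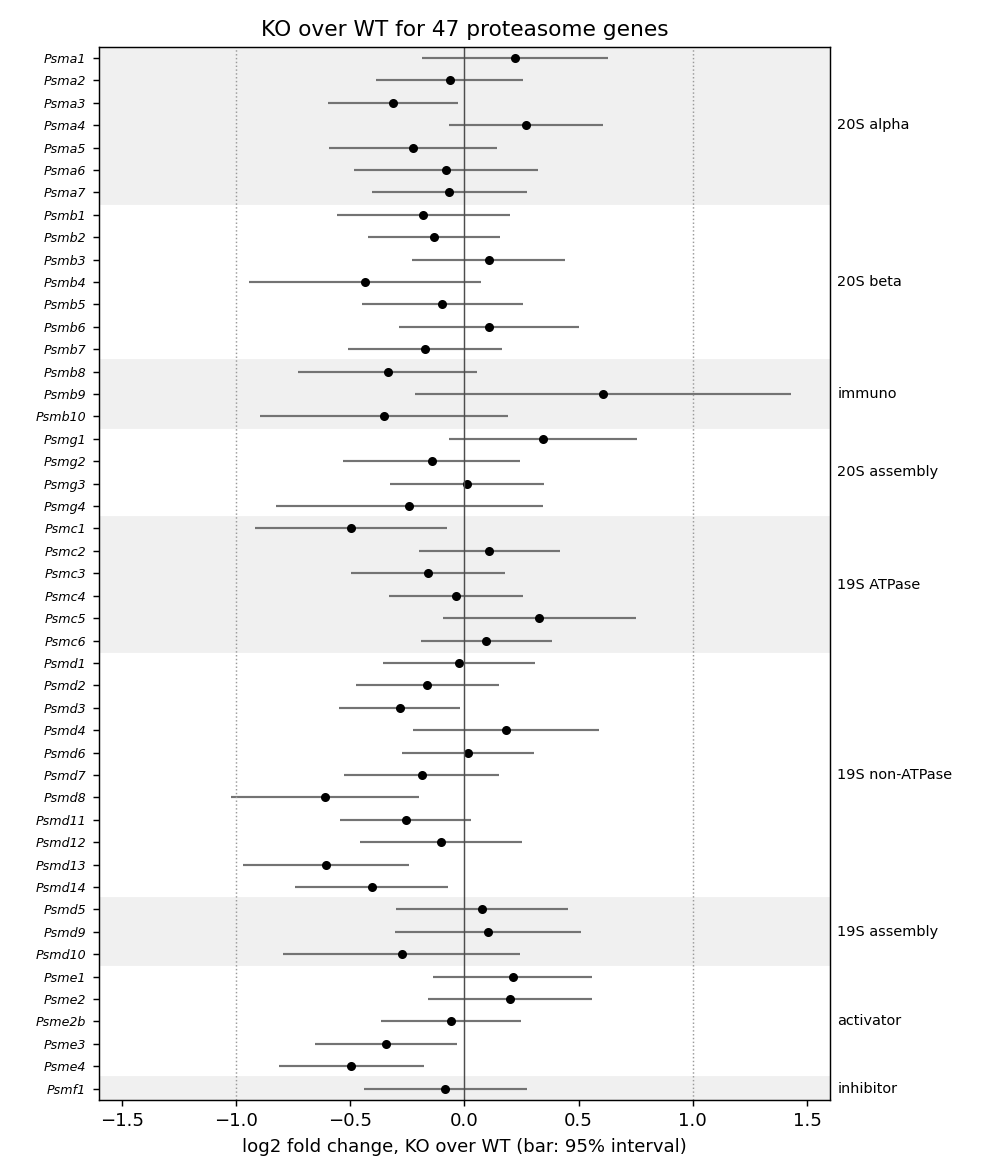
Log2 fold change of KO over WT livers for the 47 tested proteasome genes, grouped by role down the page. Points are edgeR estimates from 4 KO and 6 WT libraries, bars their 95% intervals, and dotted lines mark a doubling and a halving; all points lie between -0.61 and 0.60 and the widest bar is that of Psmb9.

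The summed level of the proteasome genes was close in both groups. Together the 49 members took 0.337% ± 0.0551 of counts in KO and 0.352% ± 0.0299 in WT libraries (SD, n = 4 and n = 6), with ranges of 0.277% to 0.391% and 0.297% to 0.380%. The KO range thus contained the WT range. By role, the summed level of the tested alpha ring genes was 577 ± 97.9 CPM in KO and 567 ± 57.4 CPM in WT, and that of the constitutive beta ring genes 766 ± 89.6 and 832 ± 127 CPM. The 19S ATPases summed to 656 ± 82.8 CPM in KO and 669 ± 58.1 CPM in WT, and the other 19S subunits to 939.9 ± 133 and 1065 ± 64.0 CPM. For the alpha ring, the beta ring and the ATPases the difference was smaller than the SD of either group. For the other 19S subunits it was smaller than the KO SD but larger than the WT SD. There KO replicates 2 and 3 (833 CPM each) lay below every WT library (969.6 CPM or more), while KO replicates 1 and 4 (986 and 1108 CPM) lay within the WT range.

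**Figure D2:**
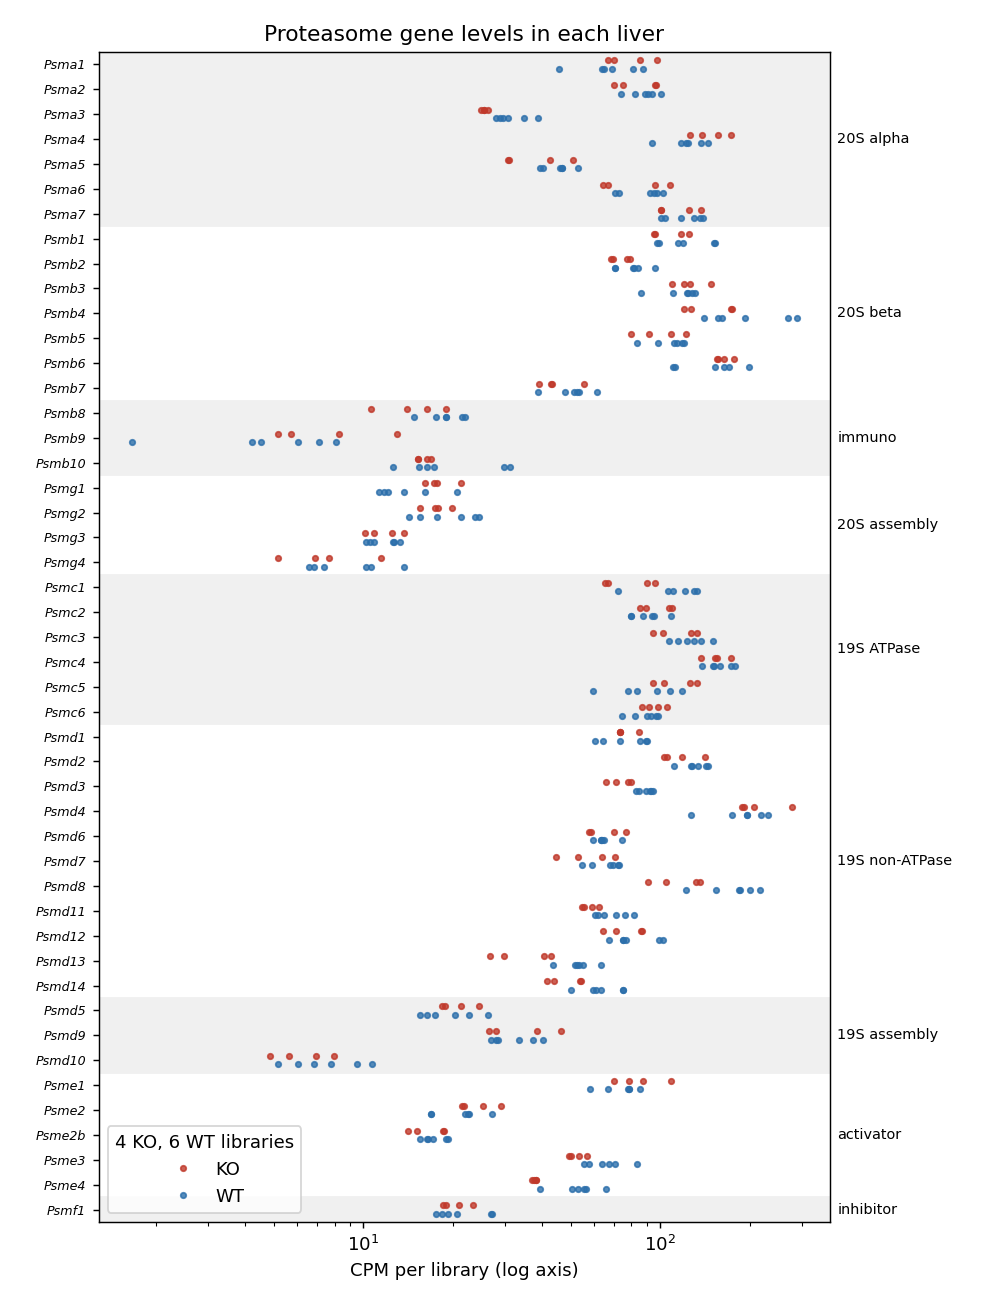
Level of each tested proteasome gene in every library, in CPM on a log axis, with KO points (red, 4 libraries) above WT points (blue, 6 libraries) for each gene. The immunoproteasome genes and the assembly chaperones lie below most core and 19S subunit genes, and the groups overlap in 43 of the 47 genes.

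In the alpha ring, whose 7 tested genes encode the gate of the core, 0 of 7 passed and 5 had fold changes below 0. Psma3 had the smallest p of the ring. It was at 26.4, 25.6, 24.9 and 25.5 CPM in KO replicates 1 to 4, against a lowest, median and highest WT level of 27.9, 30.1 and 38.7 CPM. All KO libraries lay below all WT libraries, and the KO values lay close together. The log2 fold change was -0.31 (SE 0.13, edgeR adjusted p = 0.160). Psma3 lies on chromosome 12 (70974621 to 70996347, plus strand), as do Psma6 and Psmc1 and also Ifrd1. The other alpha genes ran from a log2 fold change of -0.22 (Psma5) to 0.27 (Psma4). Psma8, the alpha subunit of the testis, had 12, 7, 5 and 6 counts in the KO libraries and 2 to 14 counts in the WT libraries, too few for the filter. Without a filter its log2 fold change was -0.34 (SE 0.58).

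In the constitutive beta ring 0 of 7 genes passed, with 5 below 0. Psmb4, a structural subunit with no active site, had the smallest p. It was at 173, 127, 120.3 and 175 CPM in KO and at 140.3, 177 and 288 CPM (lowest, median and highest) in WT. The highest WT levels were those of replicates 5 and 6, and the KO range overlapped the remaining WT libraries. Its fold change was -0.13 on the log2 scale when both were left out, an alternative chosen after the data had been seen. Over all libraries the log2 fold change was -0.44 (SE 0.23, edgeR adjusted p = 0.259). Psmb5, the chymotrypsin-like site, was at 109, 91.9, 79.5 and 123 CPM in KO and 83.4, 112 and 120.3 CPM in WT. Psmb6, the caspase-like site, was at 156, 164, 157 and 177 CPM in KO and 110.1, 158 and 199.8 CPM in WT. Psmb7, the trypsin-like site, was at 55.6, 39.1, 43.0 and 42.8 CPM in KO and 38.9, 52.0 and 61.2 CPM in WT. The 3 catalytic genes overlapped widely between the groups, with log2 fold changes of -0.10 (95% interval -0.45 to 0.26), 0.11 (-0.29 to 0.50) and -0.17 (-0.51 to 0.17). Of the exon bases of Psmb7, 11.8% also belong to Nek6 on the opposite strand, which had more counts (13084 against 6852 over all libraries), and whether counting used strand is not given in the sources used here, so its level is uncertain.

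The immunoproteasome genes were measured at low levels and in different directions, and 0 of 3 passed. Psmb8 was at 16.4, 10.6, 14.0 and 18.97 CPM in KO and at 14.8, 18.997 and 21.9 CPM (lowest, median and highest) in WT, with a log2 fold change of -0.34 (SE 0.18, edgeR adjusted p = 0.261). Without KO replicate 2 it was -0.20. Psmb9 was at 8.27, 5.70, 5.15 and 12.9 CPM in KO and at 1.66, 5.26 and 8.10 CPM in WT. Its highest level was in KO replicate 4 and its lowest in WT replicate 2, and 5 WT libraries lay at or above 4 CPM. The log2 fold change of Psmb9 was 0.60, and its 95% interval of -0.22 to 1.43 was the widest of the family. Without KO replicate 4 the log2 fold change was 0.28. Psmb10 was at 15.3, 16.95, 15.3 and 16.4 CPM in KO and at 12.6, 16.9 and 31.1 CPM in WT. The KO livers were even, whereas WT replicates 5 and 6 stood high at 29.7 and 31.1 CPM and the other WT libraries reached at most 17.4 CPM. The log2 fold change of Psmb10 was -0.35, and it was 0.05 when both of those libraries were left out. Without replicate 5 alone it was -0.22, and without replicate 6 alone -0.20. On the opposite strand, Gm20496 shares 14.7% of the exon bases of Psmb8 and Tap1 5.79% of those of Psmb9, so both levels are uncertain in part. Psmb11, the beta subunit of thymic cortex, had 0 to 2 counts in KO and 0 to 4 counts in WT libraries.

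Each immunoproteasome gene was below the subunit it replaces in every liver, and the gap was narrowest for Psmb10. Per kilobase of the principal transcript, Psmb9 was at 5.93 ± 2.63 CPM in KO and 3.90 ± 1.71 CPM in WT, while Psmb6 was at 204.5 ± 12.2 and 189.8 ± 43.9 CPM. Psmb8 was at 9.22 ± 2.18 in KO and 11.6 ± 1.62 in WT, and Psmb5 at 112 ± 20.99 and 119.6 ± 15.7, in the same unit. Psmb10 was at 12.2 ± 0.63 in KO and 15.6 ± 6.02 in WT, and Psmb7 at 38.9 ± 6.20 and 43.8 ± 6.34. As a share of the CPM of Psmb7, Psmb10 ran from 27.5% to 43.4% in KO and from 23.6% to 62.3% in WT, with the highest shares in WT replicates 5 and 6. The log2 ratio of Psmb9 to Psmb6, without the length correction, was -4.35 ± 0.51 in KO and -4.81 ± 0.57 in WT. That of Psmb10 to Psmb7 was -1.46 ± 0.27 in KO and -1.36 ± 0.60 in WT, and that of Psmb8 to Psmb5 was -2.72 ± 0.25 and -2.47 ± 0.28. All 3 ratios overlapped between the groups, and their differences of means (0.46, -0.10 and -0.24) were below the larger SD of the groups.

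**Figure D3:**
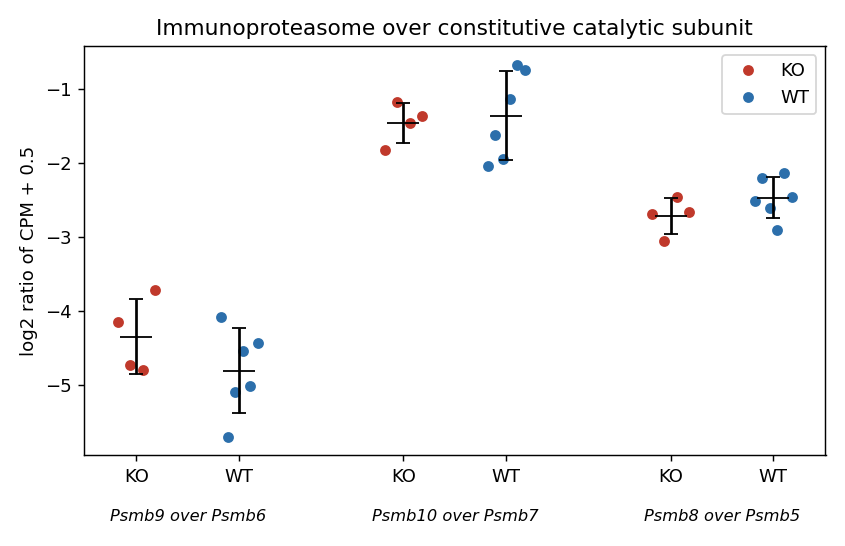
Log2 ratio of each immunoproteasome gene to the constitutive catalytic gene it replaces, per library on CPM + 0.5, for KO (red) left of WT (blue). Bars show the mean and SD of 4 KO and 6 WT libraries; the groups overlap in all 3 pairs, and the WT spread of Psmb10 over Psmb7 comes from values between -2.04 and -0.67.

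Markers of the cells that carry immunoproteasomes differed between single livers. The 6 Kupffer cell and macrophage markers summed to 20.02 to 43.3 CPM in KO and 26.8 to 213 CPM in WT, and 0 of the 6 tested passed, while the estimates of all 6 were below 0 (median -0.98 on the log2 scale). The 3 monocyte markers summed to 2.70 to 4.41 CPM in KO and 2.32 to 9.91 CPM in WT, with 0 of 2 passing. Of the 3 neutrophil markers, summing to 2.77 to 9.79 CPM in KO and 5.78 to 129 CPM in WT, 0 of the 2 tested passed and both had fold changes below 0 (median -2.41). The highest macrophage, monocyte and neutrophil sums were all those of WT replicate 2. In that library Psmb8, Psmb9 and Psmb10 were at 17.6, 1.66 and 16.4 CPM. Those of T and NK cells, B cells and dendritic cells stayed at or below 1.38 CPM per list in KO and at or below 2.50 CPM in WT, with none of these genes tested and none at 0 in all libraries. Ptprc, carried by all leukocytes, was at 2.54 to 5.39 CPM in KO and 1.55 to 8.47 CPM in WT. The 3 endothelium markers summed to 66.7 to 105 CPM in KO and 50.2 to 118 CPM in WT, with 0 of 3 passing. The hepatocyte markers summed to 48123 to 58753 CPM in KO and 36648 to 78341 CPM in WT. The part of these cells in the immunoproteasome values was not tested.

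In the 19S regulatory particle, most fold changes of the non-ATPase subunits were below 0 and none passed. Of 11 such genes, 9 had fold changes below 0 (81.8%, median -0.19), against 51.6% of all genes tested. At an unadjusted edgeR p below 0.05 there were 4, all lower in KO (36.4%), and 0 passed. Of all genes tested, 14.4% were lower in KO at that unadjusted p. Psmd13, a structural subunit of the lid, was at 40.7, 26.7, 29.7 and 42.7 CPM in KO replicates 1 to 4 and at 43.6, 52.8 and 63.3 CPM (lowest, median and highest) in WT. The groups did not overlap, although KO replicate 4 and WT replicate 4 lay within 1 CPM of each other. Psmd13 had a log2 fold change of -0.61 (SE 0.17, edgeR adjusted p = 0.0694). It was called by DESeq2 (adjusted p = 0.0145) and by edgeR without WT replicate 4 (log2 fold change -0.65, adjusted p = 0.0160). Psmd13 (chromosome 7, 140881968 to 140898643, plus strand) shares 10.1% of its exon bases with Sirt3 on the opposite strand, so its counts are uncertain in part.

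Psmd8, also a lid subunit, was at 137, 105, 90.8 and 132 CPM in KO and at 122, 185 and 216 CPM in WT. WT replicate 4 was the lowest WT library and lay within the KO range, and the other 5 lay above it. Psmd8 had a log2 fold change of -0.61 (SE 0.19, edgeR adjusted p = 0.0868). DESeq2 called it (adjusted p = 0.0251), and so did edgeR without WT replicate 4 (-0.70, adjusted p = 0.0128). Psmd14, the deubiquitinase of the lid, averaged 48.3 ± 6.54 CPM in KO and 63.9 ± 9.72 CPM in WT (log2 fold change -0.41). It was called only in the edgeR fit without WT replicate 4 among the fits run (adjusted p = 0.0396). Psmd3 averaged 73.6 ± 6.43 CPM in KO and 89.5 ± 4.77 CPM in WT without overlap (log2 fold change -0.28, SE 0.12, edgeR adjusted p = 0.169). Psmd4, a ubiquitin receptor, and Psmd6 were the only genes of this class above 0, at log2 fold changes of 0.18 and 0.02.

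Among the 6 ATPases, 3 had fold changes above 0 and 3 below, and 0 passed. Psmc1 was at 90.1, 66.7, 65.4 and 96.3 CPM in KO and at 72.0, 116 and 133 CPM (lowest, median and highest) in WT. The lowest WT level was again that of replicate 4, and the other WT libraries exceeded all KO libraries. The log2 fold change was -0.49 (SE 0.19, edgeR adjusted p = 0.138), and it was -0.59 with an adjusted p of 0.0219 without WT replicate 4. Psmc5 ran the other way, at 114 ± 18.2 CPM in KO and 90.9 ± 21.6 CPM in WT (log2 fold change 0.33, edgeR adjusted p = 0.303). The ATPases form 1 ring with 1 copy of each, and the difference between Psmc1 and Psmc5 was not tested.

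Of the 3 chaperones that assemble the 19S base, 0 passed. Psmd10 (gankyrin) had the smallest p, at 6.95, 5.62, 4.84 and 7.96 CPM in KO and 5.18, 7.30 and 10.7 CPM in WT. Its groups overlapped, with a log2 fold change of -0.27 (SE 0.24). Psmd5 and Psmd9 had log2 fold changes of 0.08 and 0.10, with 95% intervals of -0.30 to 0.45 and -0.30 to 0.51. Psmd9 shares 25.5% of its exon bases with Gm26745 on the opposite strand. Of the 4 chaperones of the 20S core, 0 passed over all libraries. Psmg1 was at 17.7, 17.3, 16.1 and 21.4 CPM in KO and at 11.3, 12.9 and 20.8 CPM in WT. WT replicate 4 held the highest WT level and lay among the KO libraries. Psmg1 had a log2 fold change of 0.34 (SE 0.19, edgeR adjusted p = 0.268), and 0.48 with an adjusted p of 0.0456 without WT replicate 4, where it was the 1 member called higher in KO.

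Of the 5 activator genes, 0 passed, and those of the nuclear activators had the smallest p. Psme4, the large activator PA200, was at 38.3, 37.1, 38.3 and 37.6 CPM in KO and at 39.3, 54.1 and 65.4 CPM (lowest, median and highest) in WT. The KO libraries were nearly identical, and the lowest WT library, replicate 4, lay just above them. Psme4 had a log2 fold change of -0.49 (SE 0.15, edgeR adjusted p = 0.0799). It was called by DESeq2 (adjusted p = 0.0195) and by edgeR without WT replicate 4 (-0.57, adjusted p = 0.00907). Psme3, PA28 gamma of the nucleus, averaged 52.3 ± 3.30 CPM in KO and 66.3 ± 10.2 CPM in WT (-0.34, SE 0.14, edgeR adjusted p = 0.158). Psme1 and Psme2, whose products form the interferon-inducible PA28 ring, had log2 fold changes of 0.21 (95% interval -0.14 to 0.56) and 0.20 (-0.16 to 0.56). Psme2b is a close copy of Psme2, and reads could have been divided between them. Psmf1, the inhibitor PI31, was at 23.3, 18.5, 19.1 and 20.96 CPM in KO and at 17.6, 19.95 and 27.2 CPM in WT, with a log2 fold change of -0.08.

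Over the whole family, the KO and WT libraries did not overlap in 4 of 47 genes (8.51%): Psma3, Psmd3, Psmd13 and Psme4, all lower in KO. Of all genes tested, 6.90% did not overlap, and 3.29% did so with lower levels in KO.

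Between livers of the same group, proteasome genes shifted together. In KO replicates 1 to 4, 30, 7, 2 and 35 of the 47 genes lay above their own mean over the 10 libraries. In WT replicates 1 to 6 the counts were 30, 14, 39, 25, 24 and 31. Over all genes tested, between 49.3% and 52.2% lay above their own mean in each library. KO replicate 2 held the lowest level of 17 members, WT replicate 2 that of 12 and KO replicate 3 that of 11, while KO replicate 4 held the highest level of 15. The median deviation of the members was -0.20 and -0.22 in KO replicates 2 and 3, and 0.07 and 0.16 in KO replicates 1 and 4, on the log2 scale. The low and high KO livers thus bracketed the WT livers, whose medians ran from -0.15 to 0.15. KO replicates 2 and 3 had fewer total counts (12675838 and 13764469) than replicates 1 and 4 (17098012 and 15899847), and mitochondrial transcripts took 22.2% and 30.5% of their counts against 16.5% and 19.4%. Among WT livers, replicate 2, with the lowest median, had 13507422 counts and a mitochondrial share of 17.6%. WT replicate 5 had the fewest counts of all libraries (12307446). In WT replicates 1, 3, 4, 5 and 6 the shares were 14.5%, 16.9%, 26.4%, 28.9% and 24.5%. The medians of the members in the same livers were 0.10, 0.15, 0.01, 0.005 and 0.12. The part of depth and mitochondrial share in these shifts was not tested.

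**Figure D4:**
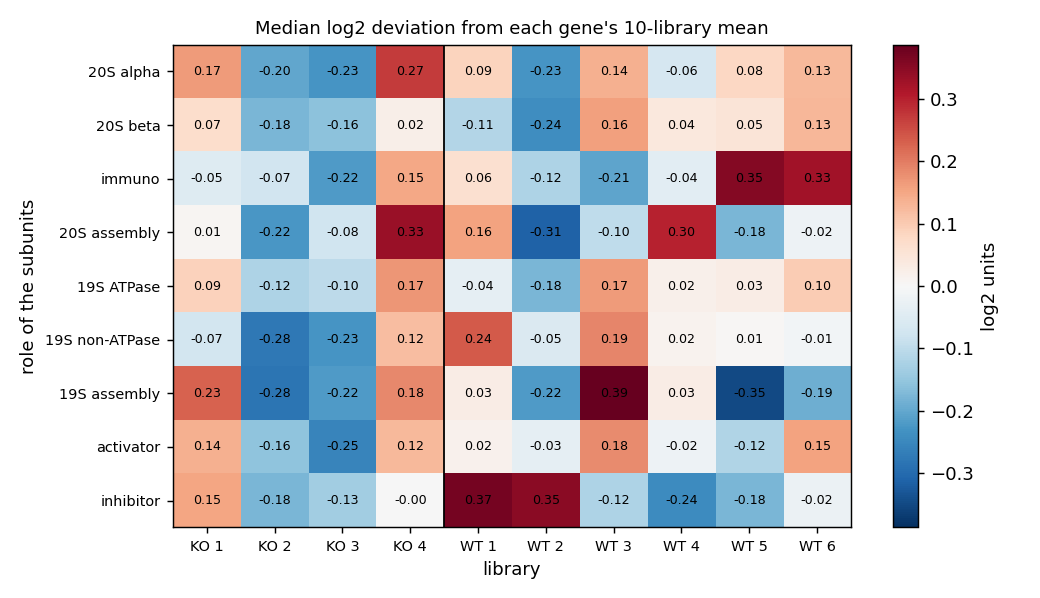
Median deviation of the tested members of each role from each gene's mean over 10 libraries, in log2 units of CPM + 0.5, for 4 KO libraries left of 6 WT libraries. The 20S and 19S rows are negative together in KO replicates 2 and 3 and WT replicate 2, while the immunoproteasome row is highest in WT replicates 5 and 6.

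The shift crossed roles but was not complete. In KO replicates 2 and 3 the medians of all 9 role classes were below 0, and in WT replicate 2 those of 8 classes, the inhibitor being the exception. The immunoproteasome class, with 3 tested genes, followed another order, with its highest medians of 0.35 and 0.33 in WT replicates 5 and 6. Psmb8 and Psmb10 had their highest levels in these libraries. Psmb9 was at 4.23 and 7.11 CPM there, against a WT mean of 5.27 CPM. The spread between livers was similar in both groups: the median coefficient of variation of the members was 14.4% in KO and 15.1% in WT, and it was larger in WT for 25 of 47 members (53.2%). Over all genes tested it was 16.9% in KO and 29.4% in WT, and larger in WT for 80.4% of genes.

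The genes that work beside the proteasome gave 1 call in 5 lists, against 1.33% of all genes tested called in either direction and 0.767% called lower in KO. Of the 20 tested factors outside the Psm names, such as the core assembly factor Pomp, the ubiquitin receptor Adrm1 and the deubiquitinase Usp14, 0 passed and 15 had fold changes below 0 (median -0.14). Their smallest p was that of Ube3c, a ubiquitin ligase bound to the proteasome, at 16.1 ± 1.12 CPM in KO and 22.7 ± 3.63 CPM in WT (log2 fold change -0.50, edgeR adjusted p = 0.0879). Ube3c was called by DESeq2 (adjusted p = 0.0360) and by edgeR without WT replicate 4 (-0.58, adjusted p = 0.00870). Of 12 genes that control proteasome transcription, 0 passed, with 6 above and 6 below 0. Nfe2l1 itself was at 82.0 ± 15.9 CPM in KO and 72.1 ± 11.4 CPM in WT (log2 fold change 0.18). Maff, a small MAF partner, was at 1.99 ± 0.59 CPM in KO and 7.44 ± 3.75 CPM in WT, with WT replicate 4 at 1.91 CPM (log2 fold change -1.90, edgeR adjusted p = 0.0541). Maff was called by DESeq2 (adjusted p = 0.000746), by edgeR without a filter (adjusted p = 0.0443) and by edgeR without WT replicate 4 (-2.10, adjusted p = 0.00101). The 5 members with the antioxidant core upstream had log2 fold changes between -0.10 and 0.11. Members without a match also lay in that range, such as Psma2 (-0.06) and Psmb3 (0.11). The part of the element was not tested.

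Of 6 genes of ubiquitin and its activation 0 passed. Of 10 genes of the p97 unfoldase, which feeds substrates to the proteasome, and its cofactors, 1 was called lower in KO, and 8 had fold changes below 0. Nploc4, a ubiquitin-binding cofactor of p97, was at 46.9, 35.6, 38.0 and 40.4 CPM in KO and at 47.8, 71.4 and 92.5 CPM (lowest, median and highest) in WT, without overlap. Its log2 fold change was -0.83 (SE 0.18, edgeR adjusted p = 0.0490). The call was lost with upper-quartile scaling (adjusted p = 0.0557) and with the replicate block (0.147). It was also lost without any 1 library other than WT replicate 4 (0.0669 to 0.151), and without WT replicates 5 and 6 (0.119). Vcp, the gene of p97 itself, did not overlap between the groups but was not called (log2 fold change -0.56, edgeR adjusted p = 0.0617). Vcp was called by DESeq2 (adjusted p = 0.00178) and by edgeR without WT replicate 4 (-0.63, adjusted p = 0.00633). Of 15 genes of antigen processing 0 passed. Irf1, a transcription factor known to induce immunoproteasome genes, had the smallest p, at 25.3 ± 5.39 CPM in KO and 12.6 ± 5.77 CPM in WT without overlap (log2 fold change 1.00, edgeR adjusted p = 0.0884). The lowest KO level, 20.4 CPM in replicate 3, lay just above the highest WT level, 20.1 CPM in replicate 4. Irf1 was called by DESeq2 (adjusted p = 0.0334) and by edgeR without WT replicate 4 (1.19, adjusted p = 0.0143).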

How the data were processed

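Mouse build mm10 and the tools STAR, HTSeq and DESeq2 are named, per the submitters' processing notes; their versions and order, the annotation and the use of strand are not stated there. The authors deposited raw read counts for each gene symbol, 1 column per library, all 10 used (0 columns left out). Library pairs within a group differed beyond sampling noise (chi-square per degree of freedom at least 15.5), so none was treated as a copy.

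The test was edgeR 4.0.16 (R 4.3.3) quasi-likelihood with TMM scaling, filterByExpr by group and robust dispersion on 4 KO and 6 WT libraries, with Benjamini-Hochberg adjustment over 13688 genes and a threshold of 0.05. The standard error (SE) is the log2 fold change over the square root of F, and 95% intervals use the degrees of freedom of that test. CPM is counts over the TMM-adjusted library size; deviations and ratios are on log2(CPM + 0.5). Values are mean ± SD over 4 KO and 6 WT libraries. Their counting error is smallest for the deepest libraries (12307446 to 17098012 counts) and highest genes.

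The members and lists were chosen with earlier results of these data known. Values in every library are given for the member of smallest p in each role class and for the catalytic and immunoproteasome genes; from each related list called genes, or the gene of smallest p, are named (1 such gene is not reported here), and cell type markers are given as sums. Psmd3, Psmd8, Psmd14, Psmc5, Psme3, Nfe2l1, Vcp and further members were named after their values were seen. Coordinates and transcript lengths are from GENCODE M21 (GRCm38, the assembly of mm10), with the longest best-ranked principal transcript; another length would move the levels per kilobase. Promoters are from RefSeq, GRCm38.p6. Alternatives were scaling by RLE or by upper quartile, omitting the filter, 1 CPM in 4 libraries, DESeq2 1.42.0, limma-voom (limma 3.58.1), the replicate number as a block, a pseudocount of 2 CPM for ratios, and leaving out each library. Leaving out WT replicates 5 and 6 together was added after the data had been seen.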

Additional observations from a re-analysis of the deposited data

Results flagged for a closer look

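Among 100 sets of values examined (the KO and the WT libraries for each of 47 members and 3 ratios), 2 held a library far from the rest by Dixon's gap test, where chance gives about 1 in 20. Psmd1, the largest scaffold subunit of the 19S base, was at 84.6 CPM in KO replicate 4, while the other KO libraries lay between 73.2 and 73.3 CPM. Psmd6, a lid subunit, was at 74.6 CPM in WT replicate 1, and the other WT libraries ran from 59.4 to 64.9 CPM.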

How the results depend on the processing

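The number of members called was 0 with edgeR under RLE and upper-quartile scaling, no filter, 1 CPM in 4 libraries, the replicate block, without WT replicates 5 and 6, and with limma-voom. It was 3 with DESeq2 (Psmd8, Psmd13, Psme4) and, leaving out single libraries, 0 to 6, where 6 came without WT replicate 4 (Psmc1, Psmd8, Psmd13, Psmd14, Psme4, Psmg1). The median log2 fold change of the members stayed between -0.15 and -0.03 without single libraries. Over all genes, 182 calls became 1618 with DESeq2, 318 with limma-voom (72.6% higher in KO, against 42.3%), 1 with the replicate block and 4 without WT replicates 5 and 6. With RLE scaling they became 187 of 13688 genes tested, and with upper-quartile scaling 153 of 13688. With no filter they became 233 of 23034, and with 1 CPM in 4 libraries 174 of 12995. Without KO replicates 1 to 4 they became 0, 0, 0 and 2, where 2729, 2681, 2740 and 2859 genes had an unadjusted p below 0.05, and without WT replicates 1 to 6 they became 2, 55, 10, 2893, 2 and 20 (range 0 to 2893). The cause was not tested.

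The replicate numbers of the labels do not name shared animals. Deviations of same-numbered libraries correlated at 0.18, 0.07, -0.03 and -0.01 across genes. These values cannot show whether same-numbered libraries share a day or a batch, which the labels do not give. With that block the members called stayed at 0, and the log2 fold changes of Psmb1, Psmb10, Psmc4, Psmd5, Psmd6, Psmg2 and Psmg3, none called, changed sign to 0.0022, 0.057, 0.011, -0.029, -0.0078, 0.046 and -0.064. Without WT replicates 5 and 6 the same genes gave 0.0017, 0.045, 0.0066, -0.045, -0.0076, 0.031 and -0.063. Upper-quartile scaling gave 0.0031 for Psmc4 and 0.019 for Psmd1.

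Leaving out single libraries also moved fold changes near 0 across it: Psma2 (-0.13 to 0.020), Psma6 (-0.22 to 0.030), Psmb5 (-0.20 to 0.0058), Psmc4 (-0.090 to 0.015), Psmd1 (-0.085 to 0.027), Psmd5 (-0.014 to 0.17), Psmd6 (-0.062 to 0.073), Psmd9 (-0.058 to 0.21), Psme2b (-0.12 to 0.017) and Psmg3 (-0.065 to 0.079).

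In the related lists, calls of p97 genes went to 0 with the replicate block, upper-quartile scaling or without WT replicates 5 and 6, to 2 with DESeq2, and to 0 to 3 without single libraries. Other proteasome factors gave 1 with DESeq2 and 0 to 4, transcription control genes 1 with DESeq2, 1 without a filter and 0 to 2, and antigen processing genes 1 with DESeq2 and 0 to 2; the highest of each came without WT replicate 4. Over all genes DESeq2 called 11.9% and edgeR without WT replicate 4 called 21.4%. Ratios of immunoproteasome to constitutive genes moved by less than 1 SD under each setting tried. Psma8 and Psmb11 failed the filter on low counts and were not called without it.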
